A study of Acer rubrum with 15 samples.

Results

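Red maple leaves (Acer rubrum 'Autumn Blaze') kept for 14 days under full light in the warm were compared with leaves taken on day 0, over the miRNA entries of a small-RNA count table. The comparison used 6 of the 15 libraries of the study. It covered every entry of the mature, hairpin and predicted miRNA classes, 419 of 8849 entries in all, made up of 243 mature or predicted miRNAs and 176 hairpins. The remaining classes entered as shares of a library's reads. The day 14 group, CC, held leaves from cuttings kept at 100% light with day and night temperatures of 30 °C and 20 °C. The day 0 group, Control, held mixed leaves that had received no treatment. Before sampling all cuttings stood in a greenhouse at 25 to 30 °C, and the light level of the day 0 leaves is not given in the sources used here. Time, light, temperature and the change of growing place therefore cannot be told apart in this comparison. The other 9 libraries came from the regimes CL (40% light, warm), LC (full light, day and night at 15 °C and 5 °C) and LL (40% light, cool), all sampled on day 14, with 3 libraries each. They shared in the estimate of the spread and served once as a reference for CC. The labels call the libraries of a group biological replicates, but do not state whether separate plants were used. The p-values therefore reflect only how far these samples scatter, which may be technical.

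Plant miRNAs are short RNAs cut from hairpin precursors that guide Argonaute proteins to complementary messenger RNAs, which are then cleaved or poorly translated. Several families are tied to mineral supply in Arabidopsis: miR397, miR398 and miR408 accumulate when copper is scarce, miR399 and miR827 when phosphate is scarce, and miR395 when sulfate is scarce. Others act in leaf growth and ageing through transcription factors, such as miR164 with NAC genes and miR319 with TCP genes.

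The CC libraries held 20064125 to 20607370 reads and the Control libraries 16440667 to 18557618. Reads of mature and predicted miRNAs numbered 2603962 to 3169771 in CC and 2561578 to 2826218 in Control. Some libraries stood apart from their group. CC replicate 1 held 0.475% rRNA against 1.72% and 1.77% in the other CC libraries, and it had the highest miR398 and miR408 levels of its group. Control replicate 2 had the highest miR408 level, and values that move without one of these libraries are given beside the result. Leaf has no defining miRNA among the measured families, so the tissue label was not checked with markers. The family miR2275, which marks reproductive tissue in grasses, had 0 entries in the table. In bulk leaves, fewer cells of a type and less RNA per cell cannot be told apart.

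Families were compared first, each being the sum of all mature and hairpin entries with the same miRNA number. Levels are in CPM, reads scaled to a library of 1000000 mature and predicted miRNA reads with edgeR's TMM factors, and changes are log2 values of CC against Control ± SE. Of 35 families 34 had enough reads for the test. At an adjusted p under 0.05 in edgeR's quasi-likelihood test, 5 families rose in CC (14.7% of the 34) and 6 fell (17.6%). The median log2 change of the 34 was -0.18. The 5 largest falls ran from 24-fold to 89.5-fold, while the largest rise was 11.2-fold. With all reads of the table as the library size the split was 4 higher and 8 lower, and the median of all families moved by -0.30. In 17 families (50%) the 3 CC libraries did not overlap the 3 Control libraries, and 11 of these were the called families.

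**Figure D1:**
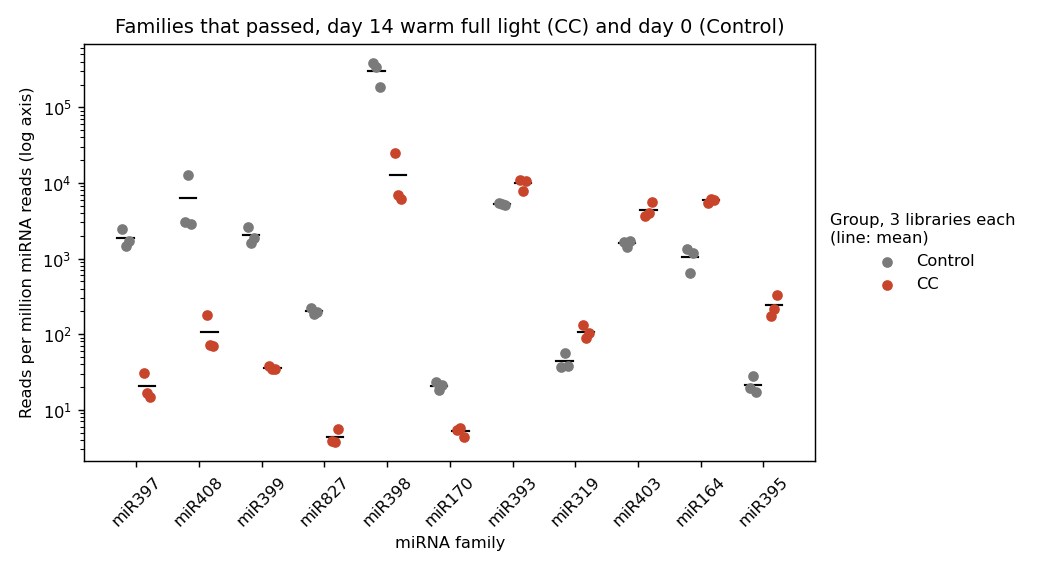
Levels of the 11 called families in each library, in CPM on a log axis, for day 0 (Control, grey) and day 14 warm full light (CC, red), with a line at each group's mean. The 3 points of a group lie apart from those of the other in every family shown, and miR397, miR398, miR399, miR408 and miR827 lie more than 10-fold lower in CC.

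All 3 families of the copper list fell, where 17.6% of all 34 families did. miR397, which targets laccases, copper enzymes of the cell wall, stood at 30.3, 16.9 and 14.8 CPM in the CC libraries and at 2423, 1459 and 1692 in Control. The groups did not overlap, and the family was 89.5-fold lower in CC (log2 change -6.48 ± 0.50, adjusted p = 1.58e-07). Its reads summed to 173 in CC and 15280 in Control. miR398, which targets Cu/Zn superoxide dismutases, was at 24697, 6917 and 6208 CPM in CC and at 386153, 337822 and 183313 in Control. CC replicate 1 was well above the other CC libraries but still far below every Control library. The change was -4.58 ± 0.88 (24-fold lower, adjusted p = 0.000764), and -5.56 without CC replicate 1.

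On day 0 miR398 made up 32.7%, 34.1% and 20.7% of the reads of mature and predicted miRNAs, and in CC 2.33%, 0.597% and 0.586%. The family thus held a far smaller part of the miRNA reads in CC. Its CC mean of 12607 CPM lay between those of miR482 (17061) and miR393 (9888), but this rank rested on CC replicate 1. In CC replicates 2 and 3 miR398, at 6917 and 6208, lay below miR393, at 7932 and 10700. miR408, which targets plantacyanin and laccases, was at 179, 71.8 and 69.1 CPM in CC and at 3070, 12761 and 2906 in Control. The Control group was uneven, replicate 2 being about 4-fold above the others, but it did not overlap CC. The change was -5.87 ± 0.90 (58.6-fold lower, adjusted p = 0.000113), with -5.19 without Control replicate 2 and -6.52 without CC replicate 1. All 7 tested miRNAs of these 3 families fell, against 9.5% of all 179 tested miRNAs, with a median log2 change of -5.85 against 0.20.

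The phosphate families fell as well, with one exception. miR399, which targets the ubiquitin-conjugating enzyme PHO2 and so favours phosphate uptake, was at 37.6, 35.1 and 34.3 CPM in CC and at 2614, 1608 and 1849 in Control. The CC libraries were close together, and the change of -5.82 ± 0.52 (56.7-fold lower, adjusted p = 5.89e-07) was many times the spread. miR827, which targets SPX-domain genes of phosphate transport and retention, was at 3.82, 3.71 and 5.59 in CC and at 225, 183 and 197 in Control. It was 45.7-fold lower (-5.51 ± 0.32, adjusted p = 8.7e-09), from 35 reads in CC and 1673 in Control. miR2111, a phosphate-responsive family that acts as a shoot-to-root signal in legumes, was at 6.69, 4.54 and 7.59 in CC and at 7.37, 5.26 and 7.10 in Control. Its groups overlapped and it did not pass (-0.07 ± 0.34, adjusted p = 0.874).

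The sulfate family moved the other way. miR395 targets ATP sulfurylases and a sulfate transporter, and stood at 176, 218 and 329 CPM in CC against 19.2, 28.2 and 17.3 in Control. Every CC library was above every Control library, and the family rose 11.2-fold (3.48 ± 0.39, adjusted p = 5.74e-06). Its reads were spread over names that alternated between libraries. The entry miR395a_5 had 508, 0 and 769 reads in the CC libraries where miR395b_3 had 8, 489 and 13. With the most abundant entry in place of the sum the call was lost (2.35, adjusted p = 0.468, in a range of 1.37e-25 to 0.468 over the alternatives). Of the 4 families of the nutrient list, 1 rose and 2 fell, where 14.7% and 17.6% of all 34 families did. The list's median was -2.79, against -0.18 over all families. Of the list's 10 tested miRNAs 7 fell and 0 rose, against 9.5% each way over all 179. Their median was -5.42, or -4.60 with an entry absent from CC set at its bound, against 0.20 over all.

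Among the families of leaf growth, miR164 had the clearest rise. It targets NAC genes, which include regulators of leaf margins and of leaf ageing in Arabidopsis. It was at 5469, 6140 and 6001 CPM in CC and at 1318, 635 and 1184 in Control, a 5.61-fold rise (2.49 ± 0.32, adjusted p = 2.48e-05). The groups were well apart, and without Control replicate 2 the change was 1.85. miR319, which targets TCP genes of leaf growth, was at 130, 89.1 and 102 in CC and at 36.4, 56.4 and 37.7 in Control. The groups did not overlap, but the call was at the threshold (1.30 ± 0.47, adjusted p = 0.0499) and was lost in 12 of 17 alternatives, among them leaving out any of the 6 libraries (0.97 to 1.31, adjusted p 0.103 to 0.261).

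The other 2 families of this list did not pass, though their groups did not overlap. miR166, which targets HD-ZIP III genes of leaf polarity, was at 215492, 177848 and 239240 in CC and at 152029, 116406 and 145372 in Control (0.61 ± 0.34, adjusted p = 0.21). miR396, which targets growth-regulating factors, gave a log2 change of 0.40 (adjusted p = 0.202). Over the list, 2 of 4 families and 4 of 30 tested miRNAs rose and 0 fell, where 14.7% of all families and 9.5% of all miRNAs rose. The medians were 0.96 and 0.54, against -0.18 and 0.20 over all.

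Of the auxin families 1 of 4 rose, where 14.7% of all 34 families did. miR393, which targets the TIR1 and AFB auxin receptors, was at 11032, 7932 and 10700 in CC and at 5456, 5276 and 5135 in Control, a 1.87-fold rise (0.90 ± 0.23, adjusted p = 0.00566). All CC libraries were above all Control libraries, but the call was lost without Control replicate 1 (0.71, adjusted p = 0.0591) or Control replicate 2 (0.52, adjusted p = 0.171). miR160 and miR167, which target auxin response factors, and miR390, which starts the TAS3 pathway, did not pass. miR390 was at 338, 412 and 411 in CC and at 500, 422 and 455 in Control, with groups that did not overlap (-0.25 ± 0.22, adjusted p = 0.438). The list's median was 0.02 over families and 0.24 over 20 tested miRNAs, of which 2 rose, a share near the 9.5% of all miRNAs.

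The families that feed back on the small-RNA machinery differed among themselves. miR403, which targets AGO2, was at 3631, 4042 and 5580 in CC and at 1646, 1424 and 1687 in Control. It rose 2.79-fold (1.48 ± 0.24, adjusted p = 0.000178), with groups that did not overlap. miR168, which targets AGO1, was at 10968, 8763 and 6665 in CC and at 13212, 14040 and 15147 in Control. Its groups did not overlap either, yet its change of -0.68 ± 0.26 did not pass (adjusted p = 0.0628). It passed with relative-log-expression factors, by library size alone and with all reads as library size (adjusted p 0.0197 to 0.0488), but not with TMM factors of the family table (0.268). It also passed without CC replicate 1 (0.0263) and without Control replicate 2 (0.0418). miR162, which targets DCL1, gave 0.38 (adjusted p = 0.474), so 1 of the 3 families rose, where 14.7% of all 34 families did.

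The families best known for phase change and pigment showed no called fall or rise other than that of miR319, a member of the MYB-related list. miR156 and miR157, which target SPL genes and mark juvenile shoots, changed by -0.17 ± 0.26 (adjusted p = 0.646) and -0.05 ± 0.23 (adjusted p = 0.863). miR172, which targets AP2-like genes, gave 0.51 ± 0.35 (adjusted p = 0.33) with groups that did not overlap. miR858, which targets MYB genes of flavonoid synthesis in Arabidopsis, was at 97709, 79341 and 103544 in CC and at 112318, 135386 and 72107 in Control, so its groups overlapped (-0.19 ± 0.35, adjusted p = 0.668).

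miR159, which targets GAMYB genes, was at 56942, 73409 and 81403 in CC and at 55203, 33603 and 51236 in Control. The groups were just apart, and the change of 0.60 ± 0.24 did not pass (adjusted p = 0.077), while DESeq2 called it (adjusted p = 0.0305). DESeq2 was the only 1 of 17 alternatives to call it. Over these the change was 0.03 to 0.67 and the adjusted p reached 0.922. miR828, another MYB-targeting family, gave -0.59 (adjusted p = 0.514). The list medians were -0.05 over the 3 families of phase change, with 1 of 14 tested miRNAs higher, and 0.20 over the 4 MYB-related families, with 0 of 12 tested miRNAs called. Over all tested miRNAs 9.5% were higher and 19% were called.

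Of the NF-YA and GRAS families, miR170 fell and miR169 and miR171 did not pass. miR170, which like miR171 targets GRAS genes, was at 5.41, 5.77 and 4.39 in CC and at 23.3, 18.1 and 21.0 in Control (-1.99 ± 0.68, adjusted p = 0.0406, 42 and 173 reads). The groups did not overlap, but the call was lost without any of 5 of the 6 libraries (-2.35 to -1.91, adjusted p 0.0711 to 0.116). miR171 (-0.38, adjusted p = 0.262) was called with all reads as library size (adjusted p = 0.0197). miR169 was at 60.2, 35.9 and 42.3 in CC and at 43.0, 50.0 and 42.9 in Control, a change of 0.03 ± 0.64 (adjusted p = 0.966). miR482, which targets resistance genes, did not pass either (0.16, adjusted p = 0.668). Of the 7 families of a list of cold response in Arabidopsis, 1 rose and 2 fell, where 14.7% and 17.6% of all 34 families did. The 2 falls were miR397 and miR408, which are also in the copper list. The median of the cold list was 0.40, against -0.18 over all families. Of its 37 tested miRNAs 4 rose and 5 fell, shares near the 9.5% each way over all miRNAs.

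Single miRNAs were tested in 179 entries, 105 with known names and 74 predicted. In CC 17 rose and 17 fell (9.5% each), and the groups did not overlap in 71 (39.7%), the 34 called entries among them. Among the known miRNAs 8 rose and 14 fell, and among the predicted 9 rose and 3 fell. The split depended on the scaling, with 9 higher and 18 lower by library size alone and 9 higher and 19 lower with all reads as the library size, which moved the median by -0.27. Leaving out Control replicate 1, Control replicate 2 or CC replicate 2 reduced the calls to 16, 20 and 18. Most of the lost calls were rises. The splits were 2 higher and 14 lower, 4 higher and 16 lower, and 5 higher and 13 lower, in the same order.

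**Figure D2:**
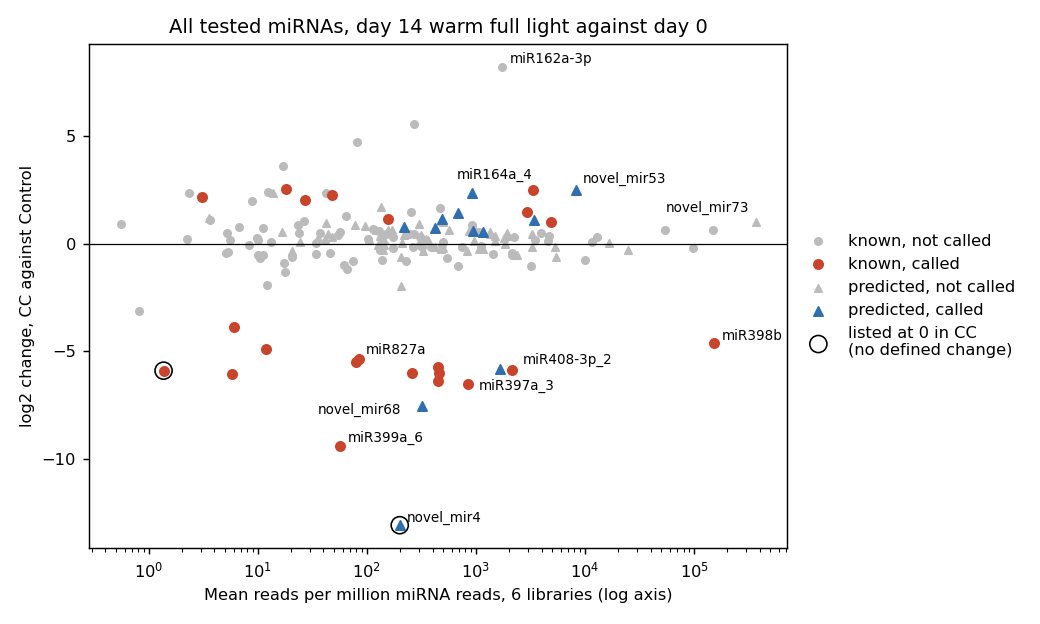
log2 change of CC against Control for the 179 tested miRNAs (vertical axis) against the mean level in CPM over the 6 libraries (log axis), with known names as circles, predicted miRNAs as triangles and called entries in colour. The called falls lie far below 0 and belong to miR397, miR398, miR399, miR408 and miR827 and to novel_mir3, novel_mir4 and novel_mir68, while ringed entries were listed at 0 in CC, so that their fitted position has no defined size.

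The known miRNAs that fell were all members of the 5 families already named. miR397a_3 carried most of its family, at 25.5, 14.0 and 14.4 CPM in CC and at 2204, 1275 and 1488 in Control, a 91.8-fold fall (-6.52 ± 0.51, adjusted p = 2.48e-06). miR398b, 14.9% of the miRNA reads of the 6 libraries, gave -4.62 ± 0.92 (adjusted p = 0.00309), and -5.59 without CC replicate 1. The entry named miR398 gave -6.01 ± 1.12 (adjusted p = 0.00217), with -6.64 without CC replicate 1 and -5.29 without Control replicate 2. miR408d and miR408-3p_2 gave -6.39 ± 1.18 and -5.85 ± 1.11, with -5.66 and -4.96 without Control replicate 2. miR408-3p_2 gave -6.56 without CC replicate 1 and -6.47 without Control replicate 1.

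Within miR399, miR399b was at 16.2, 11.5 and 14.4 in CC and at 1210, 680 and 797 in Control (-5.99 ± 0.73, adjusted p = 0.000142). Other members almost vanished from the CC libraries. miR399a_6 had 1 read in CC and 935 in Control (adjusted p = 0.000373), and miR399_1 had 1 and 91 (adjusted p = 0.0166), the latter call being lost without any of the CC libraries or Control replicate 1. miR399j_2 had 0 reads in CC and 23 in Control, at least 7.41-fold lower when CC is set at 3 reads over the group.

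Among the known rises, miR164a_4 and miR164b carried miR164, with changes of 2.51 ± 0.33 (adjusted p = 0.000232) and 2.28 ± 0.51 (adjusted p = 0.00663). The call of miR164b was lost without CC replicate 2, Control replicate 1 or Control replicate 2, and miR164a_4 gave 1.87 without Control replicate 2. miR403-3p_1 rose by 1.49 ± 0.24 (adjusted p = 0.001). The remaining known rises were 2 members of miR393, which passed as a family, and minor members of 3 families that did not. miR166-3p was at 22.6, 22.3 and 49.1 in CC and at 3.68, 7.90 and 4.32 in Control (2.55 ± 0.48, adjusted p = 0.00217, and 0.0507 without Control replicate 1). miR156e-3p_1 was at 41.1, 43.7 and 44.7 in CC and at 4.91, 15.4 and 11.7 in Control (2.01 ± 0.43, adjusted p = 0.0052), which no longer passed when CC replicate 2 or Control replicate 1 was left out. miR396a-3p_5 rose by 1.14 ± 0.30 (adjusted p = 0.0187), a call lost in 8 alternatives.

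Near-identical names shared reads unevenly between libraries. miR162a-3p had 15094, 32 and 14086 reads in the CC libraries and 9, 25 and 72 in Control, whereas miR162-3p had 60, 15201 and 132 in CC and 6709, 18749 and 10116 in Control. CC replicate 2 thus lay with the Control libraries for both names, and neither entry passed (adjusted p = 0.0922 and 0.789), nor did the family sum. The files hold no sequences for the names, so a single entry's value is uncertain where a near-identical name exists.

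Predicted miRNAs had no family name. The lowest nonzero value listed for them was 10 reads, so an entry at 0 may have had a few. The largest was novel_mir73, 36% of the miRNA reads of the 6 libraries. It was at 46.5%, 51.6% and 41.9% of a library's miRNA reads in CC and at 25.6%, 19.2% and 29.5% in Control. The groups did not overlap, but the TMM-scaled change of 0.99 ± 0.33 did not pass (adjusted p = 0.0561). It passed by library size alone (adjusted p = 0.0075), with a stricter filter (0.037) and with the 6 libraries alone (0.032). These were 3 of 15 alternatives, over which the change was 0.45 to 1.04 and the adjusted p reached 0.609.

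Of the 3 predicted miRNAs that fell, novel_mir3 was at 98.7, 38.4 and 33.9 CPM in CC and at 3588, 2799 and 3320 in Control (-5.82 ± 0.92, 56.7-fold lower, adjusted p = 0.000844, and -6.54 without CC replicate 1). novel_mir4 was listed at 0 in all CC libraries and with 758, 1178 and 1448 reads in Control (adjusted p = 0.000382). These neighbours lay on the plus strand of one sequence of the authors' assembly, whose build is not given in the sources used here. novel_mir3 spanned positions 7523761 to 7524161 and novel_mir4 positions 7677579 to 7677755, with starts 153818 bases apart. The next predicted miRNAs upstream on that sequence and strand did not pass, novel_mir2 at 7459251 to 7459339 with 0.54 (adjusted p = 0.169) and novel_mir1 at 7312269 to 7312526 with 0.09 (adjusted p = 0.76). novel_mir68 had 15, 0 and 13 reads in the CC libraries and 1655, 1528 and 2136 in Control (-7.55 ± 1.00, adjusted p = 0.000232). Its CC values lie near the lowest listed value of 10 reads, and the 0 may stand for a few, so the size of this fall is uncertain.

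The 9 predicted miRNAs that rose did so by less. novel_mir53 was at 8848, 19096 and 13964 in CC and at 1918, 3706 and 1823 in Control (2.49 ± 0.71, adjusted p = 0.0268), and novel_mir23 at 1620, 1466 and 1547 and at 320, 249 and 327 (2.37 ± 0.44, adjusted p = 0.00217). Neither pair of groups overlapped. novel_mir23 lost its call without Control replicate 1 or 2 (up to 0.0755) and novel_mir53 by library size alone and without any of 5 libraries (up to 0.123). novel_mir44 (1.43 ± 0.33, adjusted p = 0.00811) and novel_mir74 (1.16 ± 0.34, adjusted p = 0.0279) rose too, with calls lost in 4 and 12 alternatives, and novel_mir74 gave 0.57 without CC replicate 2 (adjusted p = 0.442).

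Hairpin entries were tested on their own table, with 102 of 176 having enough reads. In CC 7 rose (6.86%) and 12 fell (11.8%), and the median log2 change was -0.01. All 12 falls belonged to miR397, miR398, miR399, miR408 and miR827. The hairpin entry miR397a_3 had 16 reads in CC and 1436 in Control (-6.37 ± 0.98, adjusted p = 0.000579, and -7.19 without CC replicate 1), and miR827a had 3 and 308 (adjusted p = 0.000168). The entries miR398 (8 and 780 reads), miR399a_3 (3 and 476) and miR399_1 (0 and 85) fell as well, the last call being lost in 6 alternatives.

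The sulfate and NAC families led the hairpin rises. miR395e-5p_3 had 18, 18 and 17 reads in the CC libraries and 1, 1 and 0 in Control (4.58 ± 0.66, adjusted p = 0.000411, and 3.96 without Control replicate 3). miR164a_4 rose by 2.04 ± 0.35 (adjusted p = 0.00135). The entries miR156k_2 and miR166d-5p_2 were called with larger changes of 2.54 and 2.10 (adjusted p = 0.0272 each), but their groups overlapped. miR164e-5p had 77, 57 and 2 reads in CC and 1, 0 and 0 in Control, a call lost in 5 alternatives, and CC replicate 3 lay near Control. Of 83 names tested as both mature and hairpin entry, 15 were called in both, and all 15 had the same direction. Across the 83 names the changes had a Pearson r of 0.776 and a Spearman rho of 0.681. This describes names within the same 6 libraries, which are not independent points. The mature and hairpin entries of a name may also share reads, which was not tested, so their agreement is not separate support.

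**Figure D3:**
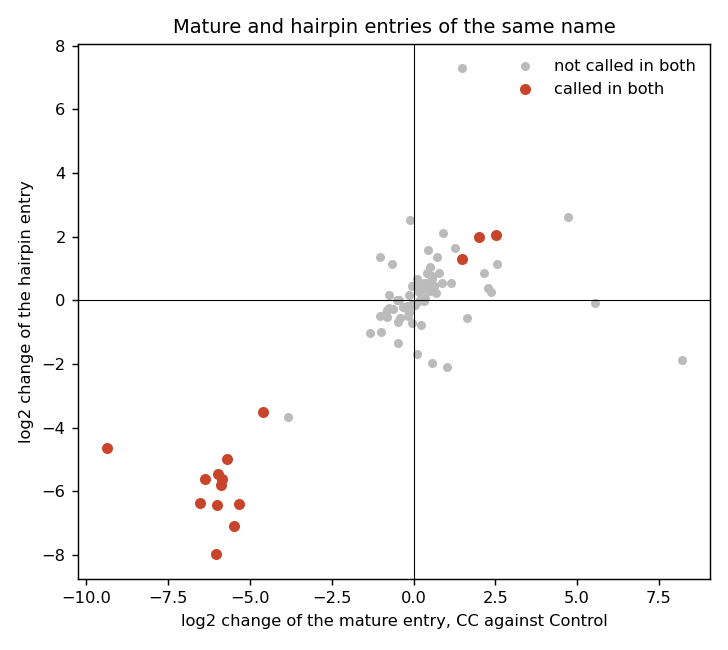
log2 change of CC against Control of the hairpin entry (vertical axis) against that of the mature entry of the same name (horizontal axis) for the 83 names tested in both tables, with the 15 called in both in red. The red points lie in the lower left, where both fell, or in the upper right, where both rose, and none lies in the other quadrants.

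Precursor entries named after RNA families in the Rfam database were counted separately from the entries above. Their levels are CPM of all reads of a library. The MIR398 precursor was at 1.99, 0.389 and 0.748 in CC and at 33.2, 66.1 and 23.1 in Control, so the groups did not overlap. The mir-399 precursor had 6 reads in CC and 530 in Control, and MIR408 had 1 and 154. The MIR164 precursor was at 3.35, 2.67 and 2.74 in CC and at 0.909, 0.852 and 0.701 in Control, again without overlap. For these 4 precursors the directions were those of the families. The MIR168 precursor was at 6.65, 7.78 and 11.1 in CC and at 21.9, 33.5 and 21.1 in Control, without overlap, whereas mir-393 overlapped, at 31.2, 13.8 and 23.1 and at 13.5, 20.0 and 13.8. The MIR396 precursor, at 0.388, 0.389 and 0.698 in CC and at 1.52, 3.16 and 0.970 in Control, and MIR167_1, at 8.01, 7.39 and 13.0 and at 16.1, 18.9 and 13.6, lay lower in CC without overlap. The log2 changes of their families, which did not pass, were above 0 (0.40 and 0.29). No test was run on the precursor entries, of which those named here are a selection.

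In 2 of 13 read classes (15.4%) the groups did not overlap. With 3 against 3 libraries a class separates by chance with probability 0.1, so a count of this size cannot show that the makeup differed. Known mature miRNAs took 6.87%, 4.65% and 6.07% of all reads in CC and 11.1%, 11% and 8.93% in Control. Predicted miRNAs went the other way, with 8.51%, 8.10% and 6.91% in CC and 6.02%, 4.57% and 6.15% in Control. The exact two-sided permutation test gave p = 0.1 for each, the smallest value that 3 against 3 libraries allow, so this design cannot reach 0.05. Together both classes held 13.7% ± 1.46 in CC and 15.9% ± 1.07 in Control (SD, n = 3), with groups that overlapped (exact permutation p = 0.2).

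Both differences lay with 1 feature each. Without miR398, mature miRNAs held 5.69% ± 1.00 of all reads in CC and 5.67% ± 0.14 in Control (SD, n = 3, exact permutation p = 1.0). Without novel_mir73, predicted miRNAs held 1.45% ± 0.08 in CC and 1.64% ± 0.06 in Control, now lower in CC (SD, n = 3, exact permutation p = 0.1). The 11 other classes overlapped between the groups. Predicted siRNAs held 3.08% ± 0.58 in CC and 2.80% ± 0.25 in Control, and intergenic reads, the largest class, 56.5% ± 4.75 and 55.4% ± 0.17 (SD, n = 3).

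**Figure D4:**
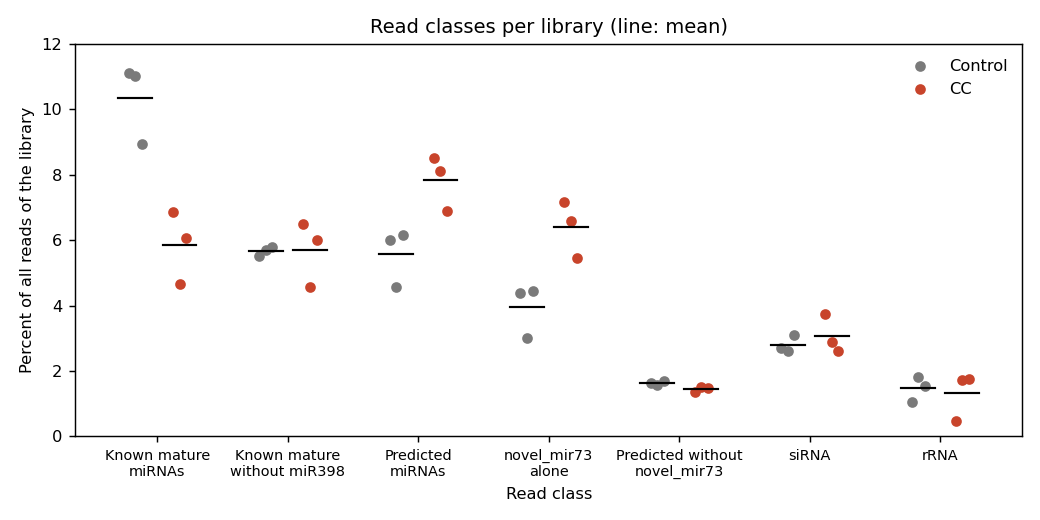
Share of all reads of a library, in percent, held by known mature miRNAs, predicted miRNAs, siRNAs and rRNA, with the mature class also without miR398, novel_mir73 by itself and the predicted class without it. Points are the 3 libraries of day 0 (Control, grey) and of day 14 warm full light (CC, red), lines are means, and the separate mature groups come together once miR398 is left out.

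The CC libraries were also compared with the mean of the other day 14 regimes, a contrast within 1 sampling day. Its means include no Control library, but the Control libraries entered the scaling and the estimate of the spread. Of 34 families 5 were higher in CC (14.7%) and 6 lower (17.6%), with a median of -0.18. By library size alone the split was 3 higher and 6 lower. In 6 families (17.6%) the CC libraries did not overlap any of the 9 other libraries.

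The copper families and the called phosphate families were lower in CC here too. miR827 was at 4.38 ± 1.05 CPM in CC, 14.4 ± 1.5 in CL, 70.1 ± 19.4 in LC and 738 ± 24.6 in LL (SD, n = 3 each), and CC lay below all 9 other libraries (-4.36 ± 0.29, adjusted p = 4.39e-08). miR399 was at 35.7 ± 1.70 in CC, 63.7 ± 15.9 in CL, 758 ± 593 in LC and 6023 ± 1412 in LL, also without overlap (-4.21 ± 0.46, adjusted p = 5.37e-06). miR397 was at 20.6 ± 8.39 in CC and at 79.7 ± 18.8, 96.9 ± 46.8 and 444 ± 163 in CL, LC and LL (-2.86 ± 0.39, adjusted p = 5.45e-05). For these families the lowest mean of the 4 regimes was that of CC, followed by CL.

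miR408 (-3.95 ± 0.77, adjusted p = 0.00115) and miR398 (-3.07 ± 0.76, adjusted p = 0.00497) were lower as well, but with libraries that overlapped. Without CC replicate 1 they gave -4.57 and -4.05, and miR398 gave -2.54 without LC replicate 1, which stood apart from the other LC libraries. miR2111, which did not pass against Control, was lower here (-1.17 ± 0.29, adjusted p = 0.00497). Its level was raised in the LC libraries, at 57.8, 44.9 and 47.4, while the CC libraries at 4.54 to 7.59 overlapped those of CL.

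miR164 and miR403 were higher in CC than in the other regimes. miR164 was at 5870 ± 354 in CC and at 1319 ± 271, 615 ± 244 and 2803 ± 474 in CL, LC and LL (SD, n = 3 each, 2.16 ± 0.23, adjusted p = 5.37e-06). All CC libraries were above the 9 others. miR403 gave 0.75 ± 0.19 (adjusted p = 0.00497) without overlap, a call lost by library size alone (0.176) and without CC replicate 3 (0.0664). miR169 (2.39 ± 0.49, adjusted p = 0.00142) and miR477 (3.64 ± 0.62, adjusted p = 0.000365) passed too, though neither did against Control. miR169 was at 35.9 to 60.2 in CC and at 1.37 to 28.1 in the other regimes. miR477 was at 78.2 ± 27.4 in CC and 71.3 ± 39.1 in LL, which overlapped, and at 0.468 ± 0.214 in CL and 6.74 ± 9.12 in LC (SD, n = 3 each). miR4995 passed (1.63 ± 0.51, adjusted p = 0.0213) but its change was 0.04 without CC replicate 2, and it lost its call in 4 alternatives.

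miR395, which rose 11.2-fold against Control, did not pass here (0.65, adjusted p = 0.103). It was at 241 ± 79.1 in CC, between 865 ± 204 in LC and 108.6 ± 39.9 in LL, with 38.9 ± 9.14 in CL (SD, n = 3 each). Without CC replicate 1 it passed (0.79, adjusted p = 0.0473). The other families called against Control, miR319, miR393 and miR170, did not pass (0.70, -0.16 and -0.46, adjusted p = 0.19, 0.527 and 0.576).

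**Figure D5:**
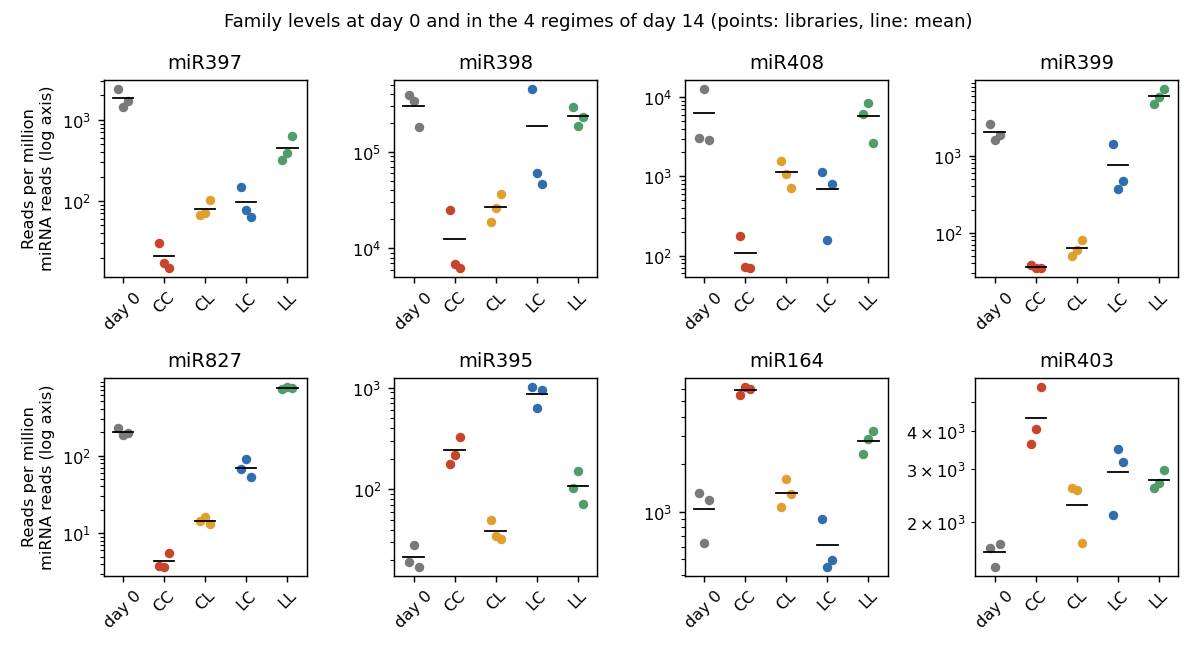
Levels of 8 called families, in CPM on log axes, in the 3 libraries of day 0 and of each regime of day 14 (CC full light warm, CL 40% light warm, LC full light cool, LL 40% light cool), with a line at each mean. CC holds the lowest points of miR397, miR399 and miR827 and the highest of miR164 and miR403, while miR395 is highest in LC.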

How the data were processed

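The authors deposited 1 table with raw counts of reads per small-RNA entry and, beside them, TPM values. Per the file headers and the values, the deposited TPM are reads scaled to the library's total, with no length term, and they were not tested. Per the labels' protocols, an RNeasy kit was used for the RNA, and libraries were amplified by PCR and cut from a PAGE gel. Not given in the sources used here are the trimming, aligner, genome build, databases, molecular identifiers and how multiply matching reads were counted, so the division of reads between near-identical names cannot be checked.

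Under R 4.3.3, edgeR 4.0.16 fitted the counts by quasi-likelihood after filterByExpr and TMM scaling (factors 0.616 to 1.57; hairpins 0.563 to 1.35), with 1 mean per group over all 15 libraries. Families used the library sizes and factors of the 243 mature and predicted miRNAs, and hairpins those of their own table. Calls needed a Benjamini-Hochberg adjusted p under 0.05 over all entries of a comparison. SE was derived from the test as |log2 change| divided by the root of F. The fits were also run on simulated counts, with families scaled by their own table and not by that of the miRNAs. That run therefore does not cover the family scaling used here, and no rates from it are given.

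Named were the 10 largest called rises and falls whose groups lay apart and whose mean reached 10 CPM in a group, 5 hairpins per direction, called families, families of lists and the 10 most abundant miRNAs, as far as the text has room. Families called in the contrast within day 14, entries with alternating names, Rfam entries and neighbours of novel_mir3 were chosen after their values were seen. The comparison, members and lists were chosen with earlier results of these data known.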

Additional observations from a re-analysis of the deposited data

How the results depend on the processing

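For miRNAs, families, hairpins and the contrast within day 14, calls numbered 34, 11, 19 and 11. Leaving out 1 library in turn gave 16 to 31, 8 to 10, 11 to 18 and 10 to 12, and it gave 2 to 6 read classes without overlap in place of 2. Without each single library in turn 15 of 34 miRNAs, 8 of 11 families, 11 of 19 hairpins and 9 of 11 families within day 14 kept their call. Leaving out predicted miRNAs gave 21 called miRNAs, and adding hairpins 50 (18 higher, 32 lower). With the replicate number as a block the counts were 33, 11, 16 and 10. Deviations from the group mean in same-numbered libraries of both groups had r = -0.145, 0.075 and -0.027. Libraries of different number gave r from -0.265 to 0.238. With so few libraries this check cannot decide whether the numbers pair the samples. DESeq2 1.42.0 called 38 miRNAs, 12 families and 23 hairpins. The falls of the families miR397, miR398, miR399, miR408 and miR827 and the rises of miR164 and miR403 kept their call against Control in every alternative run. Relative-log-expression scaling gave 29 miRNAs (12 higher, 17 lower). Signs were followed for the called families and for the named miRNAs and hairpins only, and no called result among them changed its sign. Chosen after seeing the data were scaling the families by their own table, which gave 10 calls against Control, and leaving out LC replicate 1, which gave 10 within day 14. The cause of these shifts was not tested.

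With 3 libraries a group, low entries such as miR827 in CC (35 reads) are limited by counting error. PCR reads without molecular identifiers are not independent molecules.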

Other observations

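Predicted siRNA entries differed in number between the groups. Of 7972 entries, 5025, 3787 and 3931 were listed in the CC libraries and 3232, 3372 and 3655 in Control, so every CC library listed more. The entries are listed from 10 reads on and the CC libraries were deeper, and the part of depth in this difference was not tested. The share of reads in the class overlapped between the groups.

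Among the Rfam entries of other small RNAs, 6 reached a mean of 10 CPM of all reads in a group. The entry for the transfer-messenger RNA of Alphaproteobacteria, a bacterial RNA that frees stalled ribosomes, was at 2.09, 5.40 and 6.23 CPM in CC and at 50.0, 59.1 and 61.9 in Control. It was the 1 entry of the 6 whose groups did not overlap (exact permutation p = 0.1, the smallest that 3 against 3 libraries allow). The general transfer-messenger RNA entry was at 558 ± 284 in CC and 832 ± 242 in Control (SD, n = 3), and the signal recognition particle RNA of plants at 17.3 ± 1.57 and 19.3 ± 4.18.

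Precursor entries without a plant miRNA number, 68 in all, were at 45.5, 25.8 and 25.6 CPM of all reads in CC and at 19.3, 202 and 211 in Control, so Control replicates 2 and 3 stood far above every other library. The entry mir-9, named after an animal precursor, had 40, 39 and 34 reads in CC and 6, 717 and 57 in Control.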
